A study of Mus musculus with 12 samples.

Results

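The genes described here encode the working parts of the lysosome: the soluble acid hydrolases, the non-enzymatic proteins that assist them, the proteins of the limiting membrane and the V-ATPase proton pump. The 41 genes were fixed by name, every probe set that the platform annotation assigns to 1 of these symbols was collected, and the brightest of these by its mean on the 12 arrays stood for the gene. All 41 were found, with 106 probe sets in all, among 18193 genes that the arrays represent. They comprise 19 hydrolases, 4 soluble non-enzymatic proteins, 8 membrane proteins and 10 subunits or accessory proteins of the V-ATPase.

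Lysosomal hydrolases are made in the endoplasmic reticulum, tagged with mannose 6-phosphate and delivered to an acidic compartment, where they break down glycosaminoglycans, glycolipids, glycoproteins, glycogen and lipid esters. The V-ATPase acidifies that compartment, with a cytosolic sector that splits ATP and a membrane sector that moves protons. Macrophages and their precursors are known for a high content of these proteins, and many of the genes carry the E-box known as the CLEAR element, which is bound by the transcription factors of the MiT/TFE family.

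The mice carried the Q202L point mutation of PU.1 in the germline (KI), and WT littermates were the controls. KI mice were homozygous, and both genotypes came from matings of heterozygous parents. Liver cells were sorted as short-term haematopoietic stem cells (ST-HSC; negative for lineage markers and CD150 and positive for Sca-1 and c-kit) and as granulocyte-macrophage progenitors (GMP; negative for lineage markers and Sca-1, positive for c-kit and high for Fc gamma receptors II and III), called GMP-like in KI mice, with 3 arrays for each of the 4 groups. The sample records give newborn liver and a CD48+ gate for ST-HSC, whereas the published methods give fetal liver and a CD48- gate, and the published text describes the KI GMP-like gate as intermediate for CD34 while the records give CD34+. The records give the strain as C57Bl/6, whereas the published reporting summary gives a cross with another strain. The mutant allele is present in all tissues, 2 founder lines were kept for the mutation, and how many animals stand behind an array is not stated.

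Whether the 3 arrays of a group came from separate litters is not stated either, so the p-values measure the spread between these arrays. Array medians were 5.00 to 5.10 on the ST-HSC arrays and 4.70 to 4.79 on the GMP arrays, and for this reason levels were not compared between populations. Spi1, the gene of PU.1, had a KI minus WT difference of 0.17 ± 0.19 in ST-HSC (SE; adjusted p = 0.798) and 0.39 ± 0.19 in GMP (adjusted p = 0.384). A base substitution cannot be read from these probes, so Spi1 does not check the genotype labels. Xist, the RNA that coats the inactive X, was between 10.67 and 11.74 on WT replicates 1 and 3 of both populations. It was between 2.98 and 3.78 on WT replicate 2 and on all KI arrays. The published reporting summary gives animals of both sexes, and the paper does not give the sex behind each array. If high Xist marks female animals, sex is partly confounded with genotype here.

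In ST-HSC, 4 of the 41 genes fell in KI cells and none rose. They were Psap, the precursor of the saposins that hand sphingolipids to their hydrolases, Gusb (beta-glucuronidase), Hexa (the alpha subunit of beta-hexosaminidase) and Asah1 (acid ceramidase). Calls were made with limma at an adjusted p under 0.05 over all 45037 probe sets. Of all genes, 1.68% were called lower and 1.33% higher in this comparison, against 9.76% and none of the lysosomal genes. The 41 genes were chosen with earlier results of these data known, so the comparison with all genes may be biased. All 41 genes were brighter than the median probe set, and 2.14% of the 11036 genes above that level were called lower. The mean level of the 41 was 9.15 to 9.51 on the ST-HSC arrays, well above the array medians. This cut therefore does not match the genes for brightness. With unadjusted p under 0.05, 12 of the 41 were lower (29.3%) and 4 higher (9.76%) in KI ST-HSC, beside 1331 lower (7.32%) and 1274 higher among all 18193 genes. SAM, the test named in the methods, called none of the 41 in either direction and 162 of all probe sets (0.36%), and the linear model without moderated variances called only Psap. The arrays are of bulk RNA, in which fewer cells of a type and less RNA per cell cannot be told apart.

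Psap gave the lowest adjusted p of the 41. Its log2 signal was 9.61, 9.17 and 9.36 on the KI ST-HSC arrays and 11.49, 11.52 and 12.70 on the WT arrays. The groups did not overlap, and the highest WT array was replicate 3. The difference was -2.52 ± 0.31 (SE, n = 3 against 3; limma adjusted p = 0.00174), a 5.75-fold lower signal in KI cells. A dimmer Psap probe set was at 8.34, 8.91 and 9.67 on the KI arrays and 10.38, 10.42 and 11.54 on the WT arrays, again without overlap, and its difference of -1.81 ± 0.37 was also called (adjusted p = 0.0320). In GMP the brighter set read 9.97, 10.37 and 10.35 on the KI arrays and 9.87, 10.40 and 10.42 on the WT arrays, so the groups overlapped fully. The GMP difference was -0.0024 with a 95% interval from -0.68 to 0.68, whereas the dimmer set gave -0.90 (adjusted p = 0.293).

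The RefSeq promoter entry of Psap (GRCm38.p6) holds the AP-1 motif TGANTCA beginning 18 bases before the start, and that of Gusb holds the PU.1 motif GAGGAAGT, read on the other strand, from base 38 after the start. They are shown because these are the called genes with a motif in the window of 250 bases before to 50 after the start. Capitals mark the match, at chr10:60277590-60277627 on the + strand for Psap and chr5:130003000-130003023 on the - strand for Gusb.
Psap: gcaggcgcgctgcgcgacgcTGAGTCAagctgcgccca
Gusb: gacttcaagcgACTTCCTCtttct
The Hexa window held none of the 3 motifs searched. Asah1 and Atp6v1c1 have no entry, and neither have Npc1, Atp6v1b2 and Atp6v1h, so that 36 of the 41 genes were matched.

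Hexa encodes the subunit that gives beta-hexosaminidase A its activity on GM2 ganglioside. Its signal was 10.91, 10.59 and 10.56 in KI ST-HSC and 11.84, 11.84 and 12.11 in WT ST-HSC. In GMP the values were 11.05, 11.07 and 10.17 on the KI arrays and 11.91, 12.50 and 12.23 on the WT arrays. Every KI array was below every WT array in both populations, and KI GMP-like replicate 3 was the lowest of the GMP arrays. Hexa fell by 1.25 in KI ST-HSC (SE 0.25; adjusted p = 0.0271), a fold of 2.38, and by 1.45 in KI GMP-like cells (SE 0.25; adjusted p = 0.0156), a fold of 2.73. It was the only one of the 41 called in both populations. The ST-HSC call was lost when any 1 of the 6 ST-HSC arrays was left out, with adjusted p from 0.0518 to 0.121, and the GMP call held without any single array, though without WT GMP replicate 3 its adjusted p lay just under the threshold.

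Asah1 cleaves ceramide to sphingosine, at the end of the pathway that saposins and beta-hexosaminidase A also serve. Its values were 9.89, 9.39 and 9.06 in KI ST-HSC and 11.25, 10.20 and 11.19 in WT ST-HSC, with WT replicate 2 nearest to the KI arrays. The difference of -1.43 ± 0.31 was called at an adjusted p of 0.0386, and with both high-Xist WT arrays of each population left out the difference was -0.76 (adjusted p = 0.407). In GMP the values were 10.12, 9.58 and 9.46 on the KI arrays against 10.40, 10.38 and 10.12 on the WT arrays. These ranges met without crossing, and the difference of -0.58 ± 0.31 was not called (adjusted p = 0.443). Asah1 was past the threshold only narrowly in ST-HSC: without KI replicate 2 or 3 or WT replicate 1 or 3 of ST-HSC the adjusted p lay between 0.105 and 0.149, and without KI GMP-like replicate 2 or 3 or any WT GMP array it lay between 0.0509 and 0.0601.

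Gusb removes glucuronic acid from glycosaminoglycan chains. It read 9.46, 8.86 and 8.58 in KI ST-HSC and 10.12, 10.57 and 10.20 in WT ST-HSC, without overlap. The difference of -1.33 ± 0.26 was called (adjusted p = 0.0231). In GMP, values of 9.59, 9.04 and 8.78 on the KI arrays also lay below 9.96, 9.83 and 10.02 on the WT arrays, and the difference of -0.80 ± 0.26 was not called (adjusted p = 0.155). The other Gusb probe set, 1448124_at, had values of 9.24, 8.87 and 8.68 in KI ST-HSC and 9.36, 9.00 and 9.67 in WT ST-HSC, which overlap, with a difference of -0.42 (adjusted p = 0.429). The call on the brighter set was lost without KI ST-HSC replicate 2 (adjusted p = 0.108) or 3 (0.0947) or WT ST-HSC replicate 2 (0.0725) or 3 (0.0619).

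**Figure D1:**
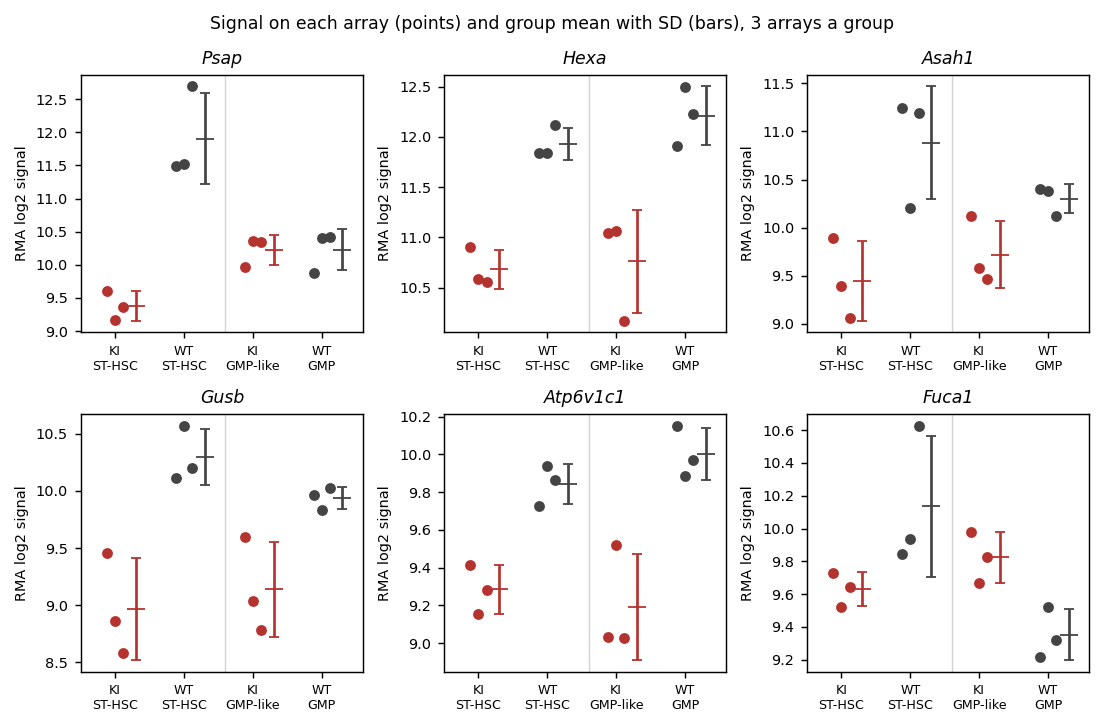
RMA log2 signal on each array (points, 3 a group) with the group mean and SD (bars) for Psap, Hexa, Asah1, Gusb, Atp6v1c1 and Fuca1, KI in red and WT in grey, and with axes that do not start at 0. Psap is separated in ST-HSC and overlaps in GMP, and Hexa is separated in both. The KI arrays of Fuca1 lie below WT in ST-HSC and above WT in GMP, with neither difference called.

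Among the 19 hydrolases, 3 were called lower in ST-HSC, none higher and 16 were not called, and their differences ran from -2.43 to 1.64 with a median of -0.0034, where the median over all genes was -0.017. They lay on both sides of 0. In 8 of the 19 all KI arrays were below all WT arrays, and in 4 they were all above. Over the 41 genes these counts were 14 (34.1%) and 4 (9.76%), beside 11.2% of all genes with KI below WT and 10.9% with KI above WT.

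The sphingolipid enzymes were divided. Besides Hexa and Asah1, Smpd1 (acid sphingomyelinase) read 7.98, 7.90 and 7.97 in KI ST-HSC and 7.35, 6.36 and 7.07 in WT ST-HSC. In GMP it read 8.68, 8.59 and 8.49 on the KI arrays against 7.34, 7.61 and 5.93 on the WT arrays. All KI values were above all WT values in both populations, with differences of 1.02 ± 0.38 (adjusted p = 0.270) and 1.63 ± 0.38 (adjusted p = 0.0608), and neither passed the threshold. Gla (alpha-galactosidase A), Galc (galactosylceramidase) and Glb1 (beta-galactosidase) had ST-HSC differences of 0.21, 0.74 and 0.36, and GMP differences of 0.20, 0.10 and 0.64, and none was called.

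Of the glycosaminoglycan enzymes other than Gusb, Naglu, Sgsh, Arsb and Ids, which act on heparan, dermatan or chondroitin sulphate, none was called in either population. Their GMP differences were 0.95, 0.45, 0.92 and 0.56 in that order. Ids (iduronate 2-sulphatase) had the widest spread of the 41, with 5.03, 5.10 and 5.64 in KI ST-HSC and 8.05, 9.28 and 5.72 in WT ST-HSC. WT replicate 3 stood next to the KI arrays, and the difference of -2.43 ± 0.75 was not called (adjusted p = 0.161). Of its 6 probe sets, 2 dimmer ones were called lower in ST-HSC, 1427812_at at -1.74 (adjusted p = 0.0109) and 1455481_at at -1.84 (adjusted p = 0.0497), while 1450166_at gave 0.27 (adjusted p = 0.932). Another, 1434751_at, was at -2.10 in ST-HSC (adjusted p = 0.0703) and -1.48 in GMP (adjusted p = 0.194). In GMP it read 4.65, 3.52 and 3.45 on the KI arrays and 5.46, 5.34 and 5.27 on the WT arrays, without overlap. In GMP 1455481_at was also below 0, and the remaining sets were above 0.

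The glycoprotein enzymes Man2b1 and Manba (alpha- and beta-mannosidase), Neu1 (sialidase) and Fuca1 (alpha-fucosidase) had ST-HSC differences of -0.62, -0.19, 1.64 and -0.50, and none passed the test. Neu1 read 6.69, 6.23 and 6.32 in KI ST-HSC against 4.87, 5.20 and 4.25 in WT ST-HSC (adjusted p = 0.256), and its other probe sets gave differences of 0.01 and 0.32. Of the remaining enzymes, Lipa (lysosomal acid lipase) came nearest, at -0.87 ± 0.23 in ST-HSC (adjusted p = 0.0991). Ppt1 (palmitoyl-protein thioesterase) was at -0.89 (adjusted p = 0.300), with WT replicate 3 at 11.84 and the other WT arrays at 10.19 and 10.59. Gaa, which degrades glycogen, and Tpp1, a tripeptidyl peptidase, were at 0.72 and 0.39, with all KI arrays above all WT arrays for both and adjusted p of 0.238 and 0.567.

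The soluble non-enzymatic proteins lay on 1 side of 0 in ST-HSC, with a median difference of -0.63. Besides Psap, Gm2a (the activator that presents GM2 to beta-hexosaminidase A) read 11.13, 11.37 and 11.53 in KI and 12.13, 11.88 and 12.79 in WT ST-HSC, which do not overlap, and its difference of -0.93 ± 0.23 missed the threshold (adjusted p = 0.0726). Grn (progranulin) was at -0.32 (adjusted p = 0.549). Npc2, the soluble cholesterol carrier, depended on the probe set. The brightest gave -0.33 ± 0.12 (adjusted p = 0.234), whereas 1416901_at, at 11.19, 11.17 and 11.25 in KI and 11.99, 11.72 and 12.05 in WT ST-HSC, was called at -0.72 (adjusted p = 0.0147), and 1455768_at was called at -2.20 (adjusted p = 0.0465).

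**Figure D2:**
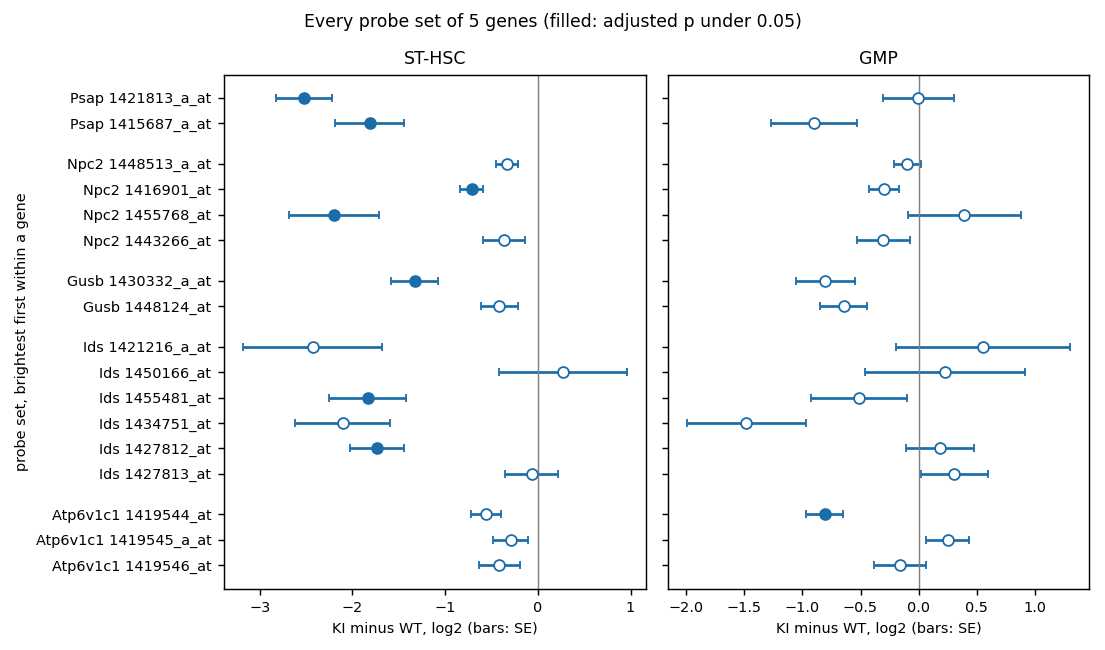
KI minus WT difference on the log2 scale with its SE for every probe set of Psap, Npc2, Gusb, Ids and Atp6v1c1, in ST-HSC and GMP, the brightest first within a gene and filled points called at an adjusted p under 0.05. Both Psap sets are called in ST-HSC, while Npc2, Gusb, Ids and Atp6v1c1 each hold called and uncalled sets.

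Over the 41 genes, 31 had several probe sets, and of the 65 sets beyond the brightest 5 were called in ST-HSC, all lower, and none in GMP. The 5 belong to Psap, Npc2 and Ids. In ST-HSC, 7 of the 65 had the opposite sign to the brightest set, in Sgsh, Ids, Gla, Fuca1, Mcoln1, Atp6v1a and Atp6v1h. In GMP, 26 had the opposite sign, in 16 genes: Arsb, Ids, Neu1, Ppt1, Tpp1, Npc2, Grn, Lamp2, Scarb2, Mcoln1, Laptm5, Atp6v0a1, Atp6v1a, Atp6v1c1, Atp6v1d and Atp6v1h. None of these sets was called with the opposite sign. The same counts were not made for the probe sets of all genes, so whether these are unusual on this array is not known.

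None of the 8 membrane proteins was called by limma in either population. Their ST-HSC differences ran from -0.63 for Npc1, the membrane partner of Npc2 in cholesterol export, to 0.12 for Lamp2, and none had an unadjusted p under 0.05, while 1 of the 8 did in GMP, beside 14.3% and 15.9% of all genes. Lamp1, an abundant glycoprotein of the lysosomal membrane, was at -0.09 in ST-HSC with a 95% interval from -0.42 to 0.23. In GMP it read 10.63, 10.92 and 10.84 on the KI arrays and 11.44, 11.36 and 11.46 on the WT arrays, which do not overlap, and its difference of -0.62 ± 0.15 had an adjusted p of 0.0625. Laptm5, a membrane protein of blood cells, had intervals from -0.33 to 0.22 in ST-HSC and from -0.18 to 0.37 in GMP by its brightest probe set. The dimmer sets 1417721_s_at and 1426025_s_at gave -0.43 and -0.58 in ST-HSC, and neither was called. Scarb2 (a membrane receptor for lysosomal enzymes), Cln3, Mcoln1 (a calcium channel) and Laptm4a were at -0.62, -0.14, -0.52 and -0.28 in ST-HSC and at 0.10, 0.018, -0.50 and 0.0089 in GMP.

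No V-ATPase gene was called in ST-HSC, where the median difference was -0.065. There 2 of the 10 had an unadjusted p under 0.05, 1 lower and 1 higher (14.3% of all genes had). The GMP count was 4 of the 10, all lower (40%), beside 9.19% of all genes lower at that p. In GMP, Atp6v1c1, which encodes subunit C of the cytosolic sector, fell. It read 9.03, 9.52 and 9.03 on the KI arrays and 10.15, 9.88 and 9.97 on the WT arrays, with no overlap and KI replicate 2 nearest to WT. The difference was -0.81 ± 0.16 (adjusted p = 0.0303), a 1.75-fold lower signal. In ST-HSC it was 9.42, 9.16 and 9.28 in KI and 9.73, 9.94 and 9.86 in WT, with a difference of -0.56 ± 0.16 that was not called (adjusted p = 0.126).

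The other Atp6v1c1 sets, 1419545_a_at and 1419546_at, had GMP differences of 0.25 (adjusted p = 0.632) and -0.16 (adjusted p = 0.841), so the call rests on 1 of 3 probe sets. It was lost without KI GMP-like replicate 1 (adjusted p = 0.0839) or 3 (0.103), WT GMP replicate 1 (0.0949) or 3 (0.0767), or KI ST-HSC replicate 2 (0.0517) or 3 (0.0523).

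The remaining subunits differed among themselves in GMP. Atp6v0d1, subunit d of the membrane sector, read 9.07, 8.82 and 8.74 on the KI arrays and 9.55, 9.77 and 10.17 on the WT arrays, without overlap, at -0.95 ± 0.23 (adjusted p = 0.0686). Atp6v0a1, subunit a of the same sector, was at 0.76 in GMP (adjusted p = 0.494) and 1.40 ± 0.44 in ST-HSC (adjusted p = 0.169). The cytosolic subunits Atp6v1b2, Atp6v1e1, Atp6v1h, Atp6v1a and Atp6v1d were at -0.47, -0.34, -0.24, 0.070 and 0.014 in GMP. The accessory proteins Atp6ap1 and Atp6ap2 were at -0.15 and -0.090. Atp6ap2 had the smallest spread of the 41, with an SD within groups of 0.0663 and intervals from -0.14 to 0.34 in ST-HSC and from -0.33 to 0.15 in GMP by its brightest probe set. The dimmer set 1423662_at read 9.57, 9.59 and 9.66 on the KI GMP-like arrays and 10.22, 10.05 and 9.95 on the WT GMP arrays, which do not overlap, and its difference of -0.46 ± 0.13 was not called (adjusted p = 0.114).

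In GMP as a whole, 2 of the 41 genes were called lower (4.88%), Hexa and Atp6v1c1, and none higher. Of all genes, 1.4% were called lower and 1.19% higher. Among the genes brighter than the median probe set, a cut that does not match for brightness, 2.16% were called lower. With unadjusted p under 0.05, 7 were lower (17.1%) and 5 higher (12.2%), beside 9.19% and 6.67% of all genes, and SAM called none of the 41 and 43 of all probe sets (0.0955%). All KI arrays were below all WT arrays for 10 genes (24.4%; 11.1% of all genes) and above them for 8 (19.5%; 8.26% of all genes). Hydrolases made up 7 of the 8, namely Smpd1, Naglu, Arsb, Glb1, Sgsh, Fuca1 and Gla, and V-ATPase genes made up 5 of the 10. The hydrolases had a median difference of 0.30 and the V-ATPase genes of -0.20, beside -0.034 for all genes.

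**Figure D3:**
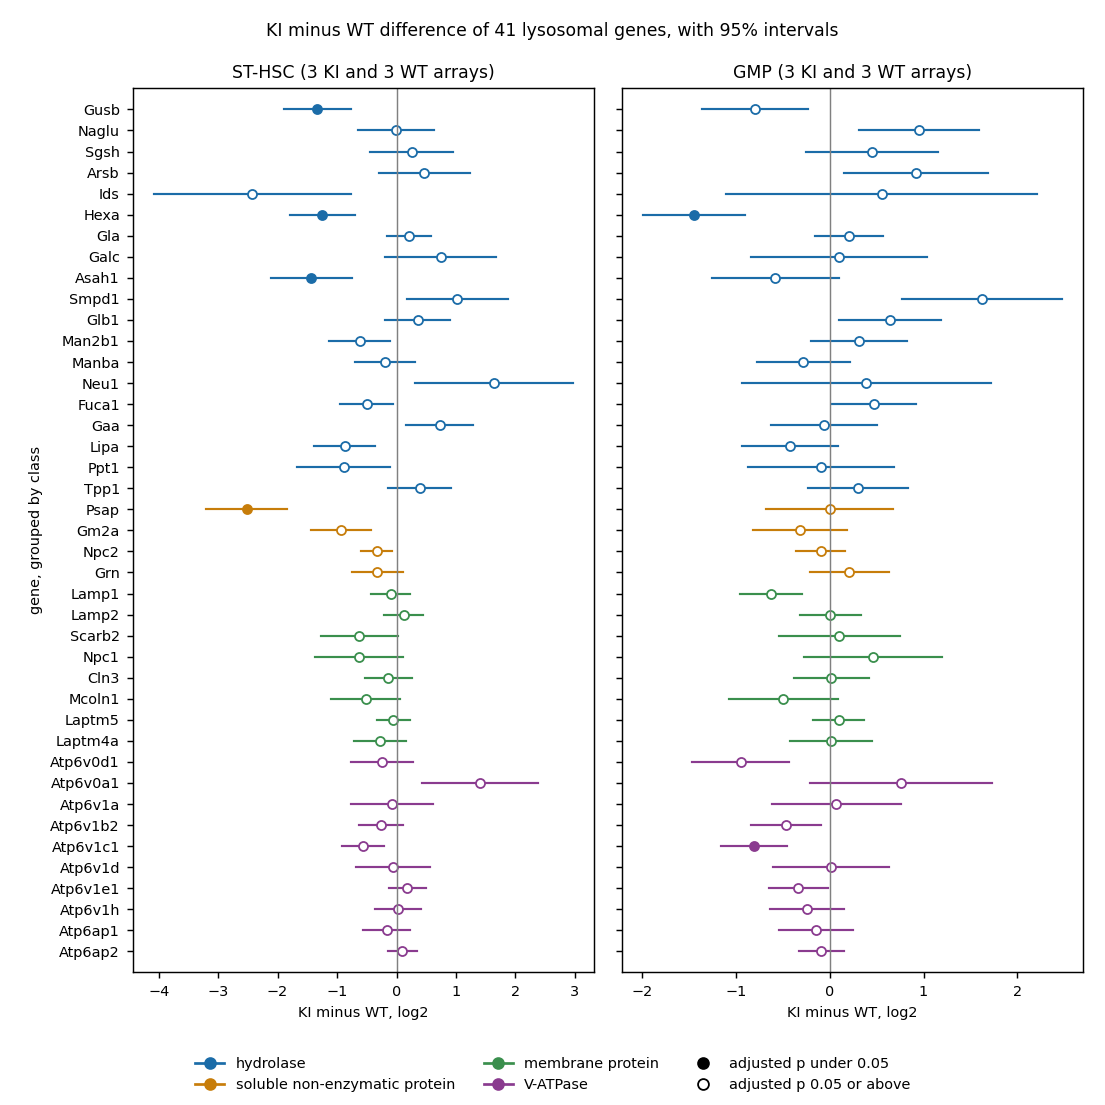
KI minus WT difference on the log2 scale (points) with its 95% interval (lines) for the 41 genes in ST-HSC and in GMP, coloured by class, with filled points called at an adjusted p under 0.05. The 4 calls in ST-HSC and the 2 in GMP are all below 0, and hydrolases extend to both sides.

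Whether a difference was itself unlike between the populations was tested as the GMP difference minus the ST-HSC difference. Xist was high on the same WT replicate numbers in both populations, and whether same-numbered arrays share animals is not stated. The fit treated the 12 arrays as independent. None of the 41 was called by limma (0.0495% of all genes were), with 8 at an unadjusted p under 0.05, or 19.5% against 8.45% of all genes, and the linear model without moderated variances also called none. The lowest adjusted p was that of Psap, at 2.52 ± 0.43 (adjusted p = 0.0966). That value is of the brighter Psap set, while the dimmer set was also lower in KI cells in GMP, without a call. The other 7 were Ids at 2.98 (adjusted p = 0.484), Npc1 at 1.09, Fuca1 at 0.98, Naglu at 0.95, Man2b1 at 0.93, Lamp1 at -0.53 and Atp6v1e1 at -0.52. For Ids the WT GMP arrays read only 3.70, 3.77 and 4.02, a low signal at which a further fall is hard to see. Without KI GMP-like replicate 3 the Ids value was 2.42, and the dimmer Ids sets gave -0.039 to 1.92. For Hexa the difference between populations was -0.20 with an SE of 0.35 (adjusted p = 0.938).

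**Figure D4:**
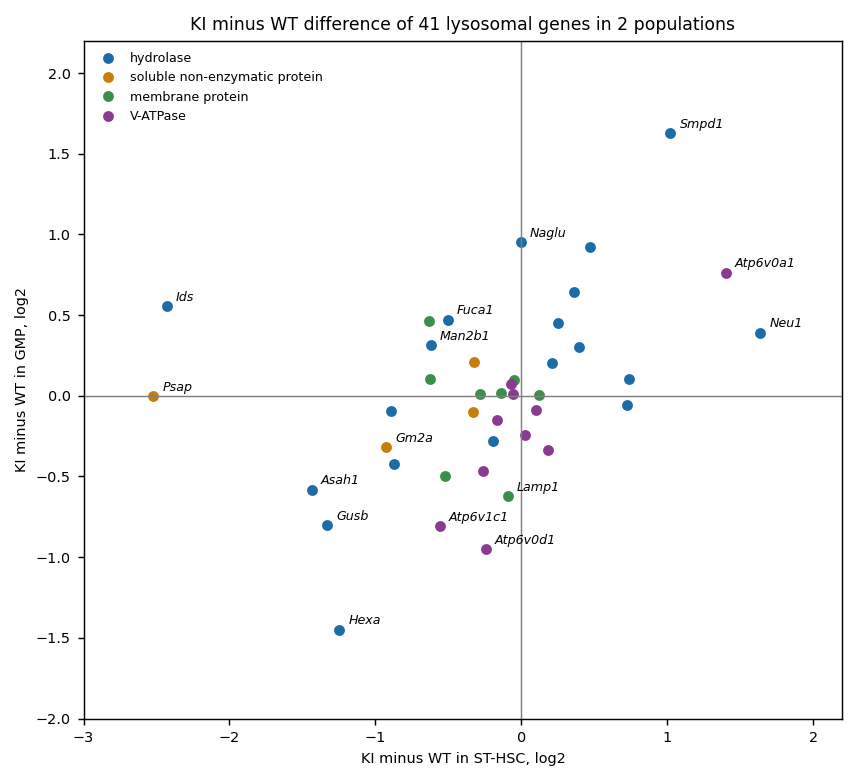
KI minus WT difference of each of the 41 genes in ST-HSC (x axis) against GMP (y axis), log2 scale, coloured by class, from separate arrays. Each point is the brightest probe set of a gene. Hexa, Gusb and Asah1 lie low on both axes, and Smpd1 is high on both. Psap and Ids are low on the ST-HSC axis alone, but each has a dimmer set that was also below 0 in GMP, uncalled. No difference between axes passed the threshold.

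The X-linked genes Lamp2, Gla, Ids, Atp6ap1 and Atp6ap2 were read separately because Xist separates WT replicates 1 and 3 from the remaining arrays. None was called in either population in the fit of all 12 arrays, and their median differences were 0.10 in ST-HSC and 0.0067 in GMP. Ids was called lower in ST-HSC without the WT arrays of high Xist (-4.02, adjusted p = 0.0318), without WT ST-HSC replicate 3 (-3.41, adjusted p = 0.0117) and with its probe sets averaged (-1.32, adjusted p = 0.000495). When the fit included each array's Xist level, Psap was the only one of the 41 called in ST-HSC (adjusted p = 0.0175), while Hexa (0.0734), Gusb (0.0656) and Asah1 (0.166) were not, and in GMP Hexa (0.0537) and Atp6v1c1 (0.104) were not. All arrays of high Xist are WT, and leaving them out leaves 1 WT array in each population. Psap was then still called in ST-HSC (adjusted p = 0.0117), while Gusb (0.113), Hexa (0.198) and Asah1 (0.407) were not, and in GMP Hexa (0.110) and Atp6v1c1 (0.327) were not.

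Other cell types' markers moved in the same comparison as the lysosomal genes. For scale, 1.68% of all genes were called lower and 1.33% higher in ST-HSC, and 1.4% and 1.19% in GMP. Of 15 macrophage markers 3 were called lower in ST-HSC, Csf1r (the M-CSF receptor) at -7.10, Mpeg1 (perforin-2) at -7.58 and Aif1 (an actin-binding protein) at -6.62, while Cd163, a scavenger receptor, was higher at 1.19. The mean level of the list was 3.96 to 4.28 on the KI and 5.68 to 6.23 on the WT ST-HSC arrays, and 3.80 to 3.95 on the KI and 4.86 to 5.43 on the WT GMP arrays. The 3 large falls weigh on this mean: the median difference of the 15 was -0.77 in ST-HSC, and 7 of them overlapped. The paper counts Csf1r among known PU.1 targets. The markers of resident liver macrophages Vsig4, Timd4 and Clec4f were at 2.63 to 5.65 on the ST-HSC arrays and were not called. Hepatocyte markers were also lower, with Afp (alpha-fetoprotein) at -1.53 and Hnf4a (a liver transcription factor) at -2.81 among 6, and a mean level of 5.70 to 6.01 on KI and 6.80 to 7.68 on WT ST-HSC arrays. In GMP, Csf1r, Mpeg1, Afp and Hnf4a were again called lower, and the hepatocyte mean was 4.71 to 5.38 on KI and 5.62 to 7.14 on WT arrays. Their part in the lysosomal differences was not tested.

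The erythroid and megakaryocyte lists moved the other way in ST-HSC. Of 5 erythroid markers 3 were called higher, beside 1.33% of all genes. The mean level of the 5 was 6.65 to 7.26 on KI and 4.35 to 5.37 on WT arrays. Of 5 megakaryocyte markers 2 were called higher, with a mean level of 7.29 to 7.60 on KI and 5.61 to 6.40 on WT arrays. Neither the neutrophil and granulocyte list (7 markers) nor the endothelial list (6 markers) had a call in ST-HSC. Each had 2 markers at an unadjusted p under 0.05, beside 14.3% of all genes. In GMP 1 marker of each was called, Ltf (lactoferrin) lower at -1.43 and Pecam1 (an adhesion molecule of endothelium and platelets) higher at 1.79. Of the megakaryocyte markers Gp1bb, a platelet glycoprotein, was higher in GMP at 2.86, and no erythroid marker was called there, with a mean level of 5.36 to 5.95 on KI and 4.16 to 4.61 on WT arrays. Of the genes behind the gates, Kit was not called in either population, and Cd34 was lower in KI cells of both (-1.41 and -2.87). The paper's own table gives Cd34 in GMP-like cells with a positive sign. By the published text, KI GMP-like cells were gated as intermediate for CD34, so their Cd34 level is not independent of the sort. In ST-HSC Flt3 was lower at -2.69, with Slamf1 (the CD150 gene) and Fcgr3 higher at 1.92 and 1.68. The part of these markers was not tested either.

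The 81 further lysosomal genes that could be read, from lists chosen with earlier results of these data known, had 8 called lower (9.88%) and 2 higher (2.47%) in ST-HSC, and 5 lower (6.17%) and 2 higher (2.47%) in GMP, beside 1.68% and 1.33% of all genes in ST-HSC and 1.4% and 1.19% in GMP. Among 17 cathepsins and other lysosomal proteases, 4 fell in ST-HSC: Ctss (cathepsin S, an endopeptidase of antigen-presenting cells) at -7.84, Ctsh (an aminopeptidase) at -3.75, Lgmn (an asparaginyl endopeptidase) at -2.56 and Scpep1 (a serine carboxypeptidase) at -3.73. Ctsd (cathepsin D, an aspartic protease) rose by 0.76 in ST-HSC and by 0.63 in GMP. In GMP, Ctss at -3.79 and Prcp (a carboxypeptidase) at -1.72 fell.

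Among 15 further hydrolases, Naaa, an acid amidase of the same family as Asah1, fell in ST-HSC at -4.54 and Galns, a sulphatase of keratan sulphate, rose by 1.53, and in GMP none was called and 2 had an unadjusted p under 0.05. Of 13 further V-ATPase genes 1 was called, Atp6v0b of the membrane sector at -1.46 in GMP (adjusted p = 0.00426). It read 9.08, 9.24 and 8.86 on the KI arrays and 10.27, 10.81 and 10.47 on the WT arrays. None of 16 further membrane proteins was called, with 3 at an unadjusted p under 0.05 in ST-HSC and 1 in GMP. Of 10 genes of enzyme sorting, Sort1 (sortilin, a receptor for Psap and other cargo) fell in both populations at -2.43 and -2.15, and Igf2r (the large mannose 6-phosphate receptor) rose by 2.35 in GMP.

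The transcription factors that bind the CLEAR element were read together with genes of the mTORC1 machinery on the lysosomal surface, 10 genes in all. Tfec read 4.94, 5.17 and 4.38 in KI and 8.98, 8.67 and 8.26 in WT ST-HSC and fell by 3.81 (adjusted p = 3.83e-05), and in GMP it fell by 4.94 (adjusted p = 5.62e-06). Tfeb, another factor of the MiT/TFE family, was called lower in ST-HSC at -1.13 (adjusted p = 0.0486) and was at -0.18 in GMP. The Tfeb call lies just under the threshold, and whether it holds with an array left out was not tested. No other gene of these 10 was called.

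The CLEAR core was looked up in the same RefSeq promoter entries. The E-box CACGTG, which reads the same on both strands, was present for 10 of the 36 genes with an entry (27.8%) and for 8.09% of all 27025 gene symbols in the table. The extended form TCACGTGA was present for 5 (13.9%) and 1.12%, the AP-1 motif TGANTCA for 5 (13.9%) and 8.97%, and the PU.1 motif GAGGAAGT for 2 (5.56%), Gusb and Gla, and 3.69%. In Glb1 the AP-1 and E-box letters overlap. The 4 genes with more than 1 E-box in an entry are shown, with each E-box in capitals, at chr8:13159080-13159160 (+) for Lamp1, chr8:3500428-3500499 (+) for Mcoln1, chr7:126583332-126583405 (-) for Cln3 and chrX:134601174-134601252 (-) for Gla, all upstream of the start in GRCm38.p6.
Lamp1: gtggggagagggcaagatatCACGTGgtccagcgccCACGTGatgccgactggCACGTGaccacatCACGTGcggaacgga
Mcoln1: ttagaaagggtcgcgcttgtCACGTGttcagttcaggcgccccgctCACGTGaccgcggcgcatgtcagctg
Cln3: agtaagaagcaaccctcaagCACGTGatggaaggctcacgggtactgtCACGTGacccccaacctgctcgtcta
Gla: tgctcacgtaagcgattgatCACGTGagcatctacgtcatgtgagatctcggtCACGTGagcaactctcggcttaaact
The 10 genes with an E-box were Lamp1, Mcoln1, Cln3, Gla, Atp6v0d1, Atp6v1a, Glb1, Naglu, Gaa and Sgsh. A match of letters does not show that a factor binds there.

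**Figure D5:**
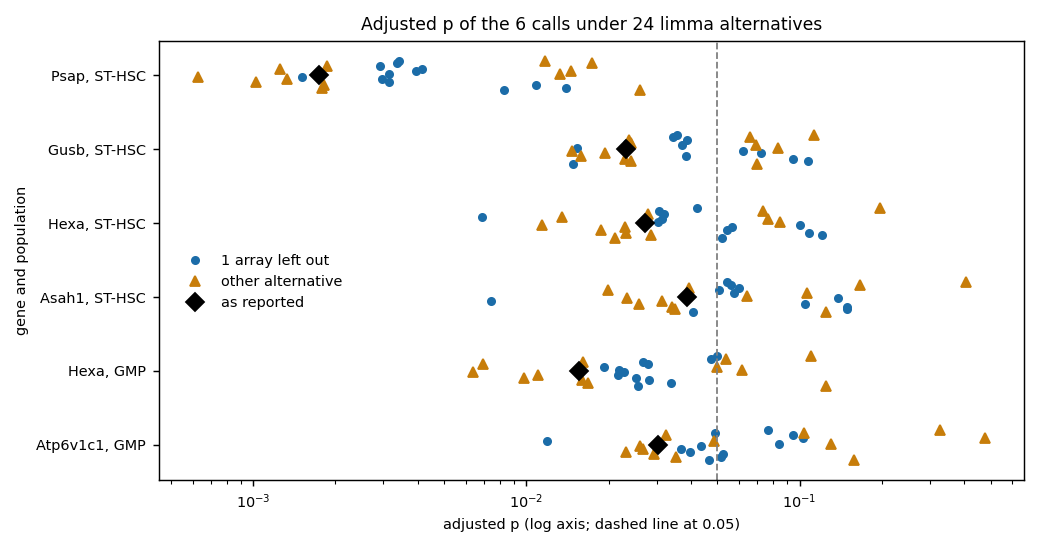
Adjusted p (log axis, dashed line at 0.05) of the 6 calls under 24 limma alternatives, with 1 array left out (circles), another setting (triangles) and the value as reported (diamonds). Psap stays left of the line throughout, and Gusb, Hexa, Asah1 and Atp6v1c1 cross it under several settings.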

How the data were processed

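RNA of sorted liver cells was amplified linearly, biotin-labelled and hybridized to 12 Affymetrix MG430 v2 arrays, 3 for each group, and groups were taken from the sample titles. The deposited values are log2 values that the authors normalized by RMA in R-Bioconductor; RMA compresses differences at low signal, and the sources used here give no version of it. Precision is limited by the number of arrays, which carry no depth. Of 45101 probe sets, 64 controls were left out. Of the 45037 tested, 34945 carry 1 gene symbol, and those with several were not named. A fit of 4 group means to the 12 arrays was made in limma 3.58.1 (R 4.3.3), which gave 8 residual and 2.52 prior degrees of freedom. P-values were adjusted by Benjamini-Hochberg across the tested probe sets, with calls under 0.05. Intervals are at 95% for single probe sets, without adjustment. An exact permutation test of 3 against 3 arrays cannot go below 0.1. Scripts were tested on simulated data. The genes and lists were chosen with earlier results of these data known. Named genes are all members, with array values for those called, up to 4 called genes of each other list, and probe sets that differ in call or sign from the brightest. Array values of uncalled genes near the threshold or set apart by 1 array were added after their values were seen. Some genes of the other lists were not analysed here. Alternatives covered the arrays in the fit, normalization, filters, the variance model, the test, the probe set of a gene, Xist, the replicate number and each array left out.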

Additional observations from a re-analysis of the deposited data

Results flagged for a closer look

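Fuca1, the alpha-fucosidase, was set apart because its KI arrays were all below the WT arrays in ST-HSC and all above them in GMP. In ST-HSC it read 9.73, 9.52 and 9.65 on the KI arrays and 9.84, 9.94 and 10.63 on the WT arrays, a difference of -0.50 ± 0.20 (adjusted p = 0.305). In GMP it read 9.98, 9.67 and 9.82 on the KI arrays and 9.21, 9.52 and 9.32 on the WT arrays, a difference of 0.47 ± 0.20 (adjusted p = 0.311). The difference between the populations, 0.98 ± 0.28, did not pass the limma test (adjusted p = 0.343). These values are from the brightest of 4 probe sets, and a dimmer one had the opposite sign in ST-HSC. No other gene of the 41 was separated in opposite directions. Of all genes, 11.2% had all KI arrays below WT in ST-HSC and 8.26% had them above WT in GMP. How many had both was not counted, so whether 1 gene of 41 is unusual is not known.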

How the results depend on the processing

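Psap was called lower in ST-HSC under all 24 limma alternatives and not by SAM, and every other call was lost under at least 1 of them. The 4 genes called lower in ST-HSC became 2 with the 6 ST-HSC arrays alone, 1 without moderated variances, 7 when each gene's probe sets were averaged, 1 with Xist as a covariate, 2 without the WT arrays of high Xist and 0 by SAM, and 1 to 4 with 1 array left out. The fit without high-Xist arrays has 1 WT array in each population, which is assumed to vary like the KI arrays that alone give the spread. The 0 called higher in ST-HSC became 1 with the 6 arrays alone (Neu1), 1 with averaged probe sets (Atp6v0a1) and 2 without the WT arrays of high Xist (Atp6v0a1 and Smpd1), and 0 to 1 with 1 array left out. The 2 called lower in GMP became 0 with the 6 GMP arrays alone, with Xist as a covariate, without the WT arrays of high Xist and by SAM, 4 when 3 or more arrays had to reach a log2 of 6 (Lamp1 and Atp6v0d1 added), and 1 to 4 with 1 array left out. The 0 called higher in GMP became 1, Smpd1, with quantile normalization within each population, with either filter on low values and with averaged probe sets, and 0 to 1 with 1 array left out. No alternative gave a call for the difference between populations, and with 1 array left out the count was 0 throughout. The median difference of the 41 genes in ST-HSC was -0.17, moved to -0.0542 with Xist as a covariate and -0.0844 without the WT arrays of high Xist, and lay between -0.25 and -0.13 with 1 array left out. In GMP it was 0.0089, moved to 0.079 with quantile normalization and -0.0762 with averaged probe sets, and lay between -0.027 and 0.023 with 1 array left out. The median difference between populations was 0.15, moved to 0.067 without the WT arrays of high Xist and lay between 0.077 and 0.21 with 1 array left out. The causes were not tested.

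With the replicate number as a block, 1 gene was called lower in ST-HSC (Psap) and 0 in GMP. Deviations of same-numbered KI and WT arrays correlated at 0.0343 to 0.0742 in ST-HSC, where each of the 6 arrays correlated best with its own number. In GMP they correlated at -0.0381 to -0.00398, and 0 of 6 did. The main fit assumed no pairing by number in either population, and for ST-HSC these correlations do not settle that choice. Of 2987 single-gene values recomputed, 54 lost and 27 gained a call, no called value changed sign and 133 uncalled ones did. Ids had no value under the filter at a log2 of 6, and Atp6ap1 none without _x_at and _s_at probe sets. With 3 arrays a group, a missed threshold does not show equal levels.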
